A study of Mus musculus with 21 samples.

Results

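Transcripts that mark the ventral or the dorsal end of the mouse hippocampus were followed in bulk RNA-seq of the hippocampus after CD8+ T cell transfer or depletion. The 6 ventral markers were Grp, Trhr, Htr2c, Lypd1, Gpc3 and Calb2, and the 4 dorsal markers were Wfs1, Nov, Lct and Gsg1l. They were taken by symbol from a fixed list, and all 10 were found among the 24411 genes of each of 2 tables. The rule reads symbols and no values, but the list was proposed with earlier results of these data known. All 10 passed the filter of a mean normalized count of at least 10, so every marker was tested in both experiments.

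All mice were male and labelled wild-type. In the transfer experiment the recipients were B6.SJL-Ptprca Pepcb/BoyJ mice aged 4 months. Both recipient groups had been given a CD8a antibody (days -11 and -7) against their own CD8+ T cells. CD8+ T cells of C57BL/6J donors were then injected into the tail vein. Donors were 22 to 28 months old for 5 libraries, called aged T recipients here, and 3 to 4 months old for the other 6, called young T recipients. The depletion experiment used mice of 22 to 24 months, whose strain the labels do not name. Injections of the CD8a antibody (5 libraries) or of rat IgG2b as isotype control (5 libraries) were repeated every 4 days. The hippocampus of 1 hemisphere was dissected after perfusion. The transfer experiment asked what aged T cells change in a young hippocampus, and the depletion experiment what their removal changes in an aged one. Each library is a separately named sample, but no label says in words that each is a separate mouse. The p-values therefore measure the spread between these samples.

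The hippocampus is a curved structure whose dorsal part serves mainly spatial memory and whose ventral part is tied more to emotion and stress. Its principal neurons look alike along this long axis but express different genes, so a set of dorsal and ventral transcripts reads how much of each end a piece of tissue holds, or how active those programmes are. In whole tissue, a change in the number of cells of a type and a change in RNA per cell cannot be told apart.

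RefSeq promoter windows (assembly GRCm38.p6, the release of mm10) were matched for 5 of the 10 markers by symbol. Below are those of the ventral markers Htr2c and Gpc3, at an r of 0.72 over the transfer libraries, and of the dorsal marker Lct. There, Lct stood at an r of -0.60 with Htr2c and -0.50 with Gpc3. None of these relations was called (exact permutation, adjusted p 0.393 to 0.442). Without the 2 libraries farthest out in Gpc3, its r with Lct was -0.06. In the depletion libraries Htr2c and Gpc3 stood at an r of only 0.07 with each other, and Lct stood at -0.21 with Htr2c and 0.26 with Gpc3. Each is the part of the 250 bases before the RefSeq start that lies before every annotated start of the gene, on the gene's strand, 5′ to 3′.
Htr2c, chrX:146962263-146962463, plus strand: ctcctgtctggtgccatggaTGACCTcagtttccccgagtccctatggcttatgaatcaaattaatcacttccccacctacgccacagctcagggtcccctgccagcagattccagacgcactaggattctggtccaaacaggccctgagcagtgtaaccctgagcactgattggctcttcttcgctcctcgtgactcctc
Gpc3, chrX:52613975-52614224, minus strand: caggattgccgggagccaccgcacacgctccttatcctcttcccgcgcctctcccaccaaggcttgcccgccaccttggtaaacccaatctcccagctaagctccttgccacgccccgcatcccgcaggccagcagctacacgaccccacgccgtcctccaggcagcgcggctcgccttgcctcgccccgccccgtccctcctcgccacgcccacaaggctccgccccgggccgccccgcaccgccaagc
Lct, chr1:128328319-128328568, minus strand: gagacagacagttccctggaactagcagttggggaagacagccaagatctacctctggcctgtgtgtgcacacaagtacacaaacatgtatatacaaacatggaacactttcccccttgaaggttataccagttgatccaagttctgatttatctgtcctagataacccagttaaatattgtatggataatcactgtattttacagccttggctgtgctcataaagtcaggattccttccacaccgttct
Capitals mark AGGTCA or its reverse complement TGACCT, the half-site that nuclear receptors such as Nr2f2 bind. It was searched on both strands because Nr2f2, listed as a further ventral marker, followed the ventral minus dorsal level in both experiments, as described further on. The choice was thus made after values were seen. Htr2c holds 1 match, and Gpc3 and Lct none. The same letters occur in 14% of all 32851 promoter windows of 250 bases, so the match is a description only.

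The markers lie on several chromosomes (mm10, GENCODE M21 gene bounds). Of the ventral markers, Trhr is at chr15:44196135-44235912, Htr2c at chrX:146962513-147197277, Lypd1 at chr1:125867622-125913101, Gpc3 at chrX:52272426-52613950 and Calb2 at chr8:110137502-110168210. Of the dorsal markers, Wfs1 is at chr5:36966104-36989205, Nov (now Ccn3) at chr15:54745702-54754039, Lct at chr1:128284756-128328318 and Gsg1l at chr7:125878420-126082411. Exons of Lypd1 overlap those of Gpr39 on the opposite strand, and the counting strand is not given in the sources used here, so reads of that pair may not be separated.

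Libraries held 9957822 to 12136146 reads (CD8a antibody), 11103024 to 14375029 (IgG2b), 12361933 to 15055422 (aged T) and 11232442 to 14911138 (young T). All 6 hippocampal marker genes checked (Prox1, C1ql2, Neurod6, Zbtb20, Spink8, Fibcd1) were detected in both experiments. Their summed normalized count was 5682 to 8980 in the transfer libraries and 3783 to 7584 in the depletion libraries. Choroid plexus genes (11 listed) were present in every group at uneven levels, with sums of 2428 to 74330. CD8a antibody replicate 5 stood apart from the other libraries of its experiment: its score on the first principal component (24.6% of variance) was 57.3, against -28.2 to 6.90 for the others. Depletion results are therefore also given without it.

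In young mice, none of the 10 markers passed the test between recipients of aged and of young T cells (limma, adjusted p 0.600 to 0.984). That is 0 of 10, against 0% of 14162 genes tested, and edgeR, DESeq2 and limma-voom also called 0 markers. At an unadjusted p under 0.05 there was 1 of 10, Lypd1, against 8.25% of all genes (4.29% higher). No marker separated the groups without overlap, which 0.699% of all genes did. In simulated data of this size the test recovered 86% of 2-fold and 45% of 1.5-fold changes, set in randomly drawn genes. Most markers varied more between libraries of a group than most genes, as given further on. These shares therefore do not carry over to the markers.

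Grp encodes gastrin-releasing peptide, the only secreted ligand among the ventral markers. Its normalized counts were 383, 149, 167, 285 and 173 in aged T recipients 1 to 5, and ran from 133 over a median of 265 to 366 in young T recipients. The groups spanned nearly the same range, and the log2 difference (aged minus young T) was -0.11 (95% interval -0.71 to 0.49). Trhr, the receptor of thyrotropin-releasing hormone, stood at 217, 65.0, 90.1, 106 and 57.1 with aged T cells. With young T cells it ran from 20 over 94.9 to 184, the widest relative range of any marker in that group. The log2 difference was 0.28 (-0.67 to 1.24). Htr2c, the serotonin receptor 2C, stood at 1214, 1286, 549, 862 and 593 with aged T cells, against 372 to 1188 (median 634) with young T cells. Aged T recipients 1 and 2 lay above every young T recipient and the other 3 within their range, for a log2 difference of 0.39 (-0.22 to 0.995).

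Lypd1 (Lynx2), a membrane-anchored protein of the Ly6 family that modulates nicotinic receptors, was the steadiest marker. Its normalized counts were 1390.0, 1298, 978, 1226 and 1121 with aged T cells. With young T cells they ran from 895 over 1007 to 1025. Aged T recipients 1, 2, 4 and 5 lay above all young T recipients and replicate 3 did not. The means were 1203 ± 159 (SD, n = 5) and 992 ± 48.5 (SD, n = 6), and limma gave a log2 difference of 0.27 (SE 0.089, adjusted p = 0.600). The difference thus did not hold over all genes tested.

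Gpc3 encodes glypican 3, a cell-surface heparan sulfate proteoglycan that binds Hedgehog ligands. It stood at 134, 192, 58.5, 75.0 and 67.0 with aged T cells and ran from 35.8 over 73.9 to 99.2 with young T cells. As for Htr2c, aged T recipients 1 and 2, and no others, exceeded the young range, and the log2 difference was 0.44 (-0.22 to 1.09). Calb2 encodes calretinin, a calcium buffer of interneuron subsets and, in mice, of mossy cells. It ranged from 192 to 782 with aged T cells and from 161 to 734 with young T cells, with a log2 difference of -0.08 (-0.90 to 0.74).

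Among the dorsal markers, Wfs1 (wolframin, a protein of the endoplasmic reticulum membrane) stood at 1660.4, 1673, 1291, 1962 and 2200.3 with aged T cells. With young T cells it ran from 1208 over 1476 to 3036. Young T recipients 1 and 2, at 3036 and 2409.9, were above all others. The log2 difference was 0.02 (-0.44 to 0.48). Nov, a secreted matricellular protein of the CCN family, split the aged T recipients into 2676 and 2656 (replicates 1 and 4) and 744, 1125 and 1071 (replicates 2, 3 and 5). All young T recipients lay in between, at 1278 to 2309, and the log2 difference was -0.23 (-0.84 to 0.39). Lct, the gene of the digestive enzyme lactase, ranged from 352 to 1047 and from 376 to 1125, with a difference of -0.13 (-0.79 to 0.53). Gsg1l, an auxiliary subunit of AMPA-type glutamate receptors, ranged from 405 to 639 and from 424 to 657, with a difference of -0.08 (-0.37 to 0.22).

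**Figure D1:**
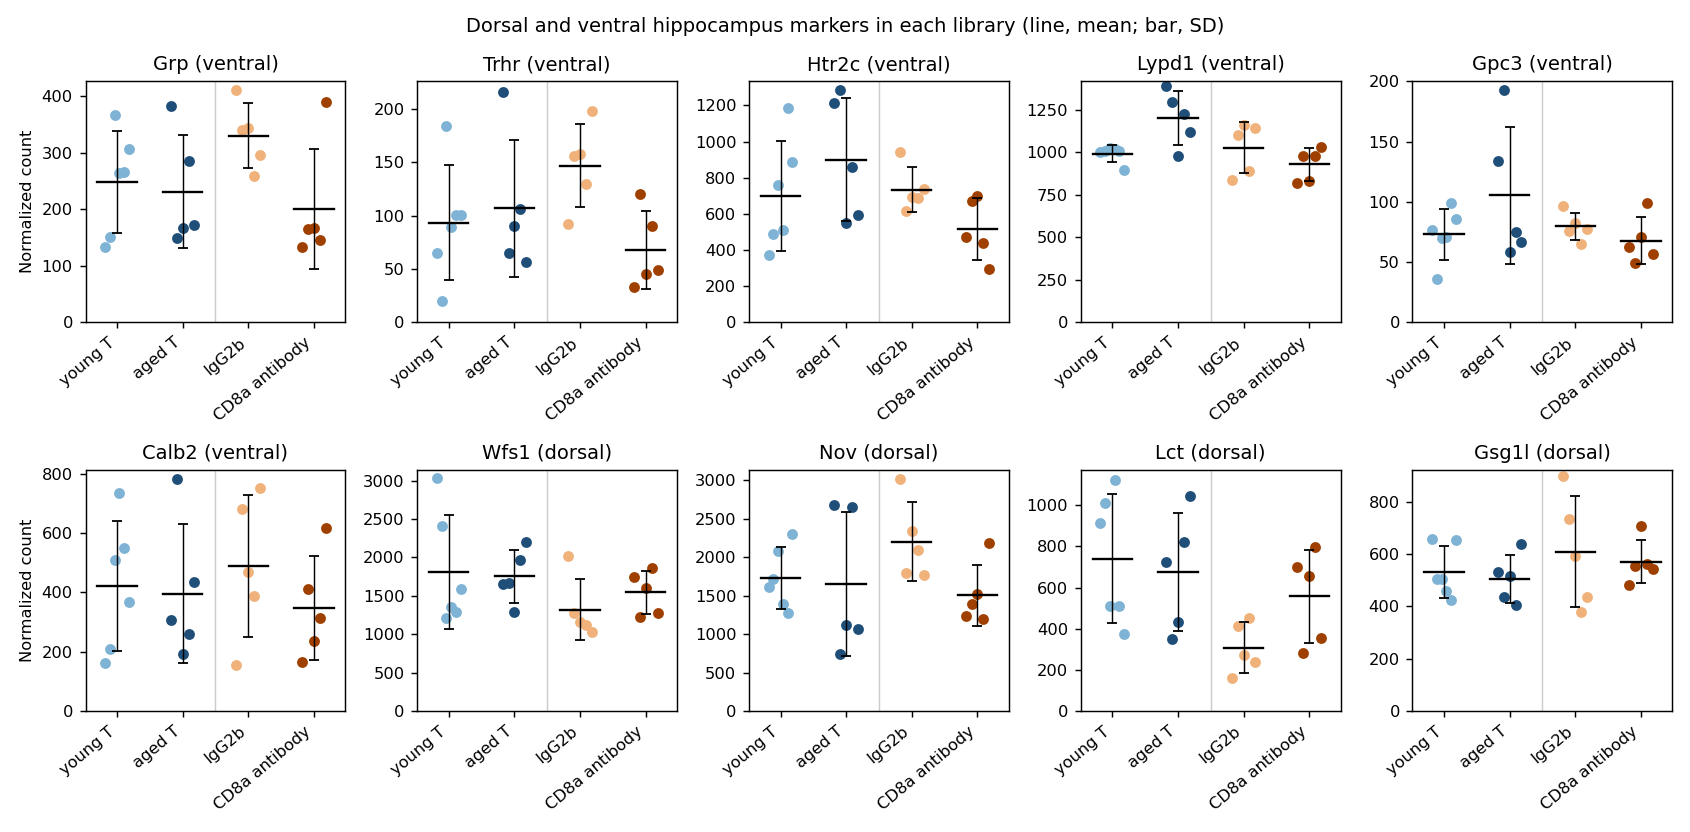
Normalized count (y axis, linear, from 0) of each marker in every library of the 4 groups; points are libraries, the line is the group mean and the bar its SD. With the CD8a antibody 4 of the 5 Grp points lie between 134 and 168, below all IgG2b points (259 to 411), and the fifth is at 389.

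In aged mice, none of the 10 markers passed the test between the CD8a antibody and IgG2b either (limma, adjusted p 0.279 to 0.977). That is 0 of 10, against 0.00717% of 13939 genes. The values of all 6 ventral markers were lower with the antibody, with a median log2 difference of -0.50, while 50.4% of all genes were lower and their median was -0.002. At an unadjusted p under 0.05 there were 5 of 10 markers against 8.47% of all genes: Grp, Trhr, Htr2c and Nov lower (4.15% of all genes), and Lct higher (4.31%). Without antibody replicate 5 the same 3 ventral markers and Nov had an unadjusted p under 0.05 and lower values (5.97% of all genes), and Lct a higher value (7.22%). No marker separated the groups without overlap, which 2.05% of all genes did. edgeR and limma-voom, which called 0.00719% of genes each, called 0 markers, as did DESeq2, which called 0.656%.

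Trhr had the largest difference. Its normalized counts were 33.5, 120.3, 45.2, 90.5 and 49.0 with the antibody and 92.4, 156, 158, 129.9 and 199 with IgG2b. All 5 antibody libraries lay below the IgG2b median of 156, and only replicate 2 lay above the lowest IgG2b library. The means were 67.7 ± 36.4 and 147 ± 39.2 (SD, n = 5 each). limma gave a log2 difference of -1.22 (SE 0.313, adjusted p = 0.279), and DESeq2 gave -1.12 with an adjusted p of 0.0538.

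Grp stood at 134, 166, 168, 145 and 389 with the antibody and at 411, 340.1, 344, 259 and 296 with IgG2b. Antibody replicates 1 to 4 lay below every IgG2b library, and replicate 5 lay above all IgG2b libraries except replicate 1. The means were 200.4 ± 106 and 330.0 ± 57.0 (SD, n = 5 each), and limma gave a log2 difference of -0.82 (SE 0.243, adjusted p = 0.325). Without antibody replicate 5 the mean was 153 ± 16.3 (SD, n = 4) and Grp fell by 1.09 on the log2 scale (SE 0.139, adjusted p = 0.00908). It was then the only marker called, against 0.179% of all genes, and the groups did not overlap, which held for 4.94% of all genes.

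Htr2c stood at 474, 674, 698, 441 and 294 with the antibody, and at 941, 618, 691, 689 and 736 with IgG2b. Antibody replicates 2 and 3 lay within the IgG2b range and the other 3 below it, for a log2 difference of -0.56 (SE 0.204, adjusted p = 0.452). Without replicate 5 the difference was -0.38 (adjusted p = 0.314).

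The other 3 ventral markers overlapped widely. Lypd1 ran from 820.5 to 1030.0 with the antibody and from 839 to 1160.2 with IgG2b, a log2 difference of -0.14 (95% interval -0.40 to 0.12). Gpc3 ran from 49.0 to 99.4 against 65.4 to 96.7, a difference of -0.26 (-0.69 to 0.17). Calb2 ran from 166 to 616 against 157 to 752, a difference of -0.44 (-1.29 to 0.40).

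The dorsal markers did not share a direction. Lct had the largest difference towards higher values, with 702, 284, 655, 797 and 354 with the antibody and 161, 414, 271, 454 and 240.5 with IgG2b. Antibody replicates 1, 3 and 4 lay above every IgG2b library and replicates 2 and 5 within their range. The means were 558 ± 226 and 308 ± 123 (SD, n = 5 each), and limma gave 0.84 as the log2 difference (SE 0.313, adjusted p = 0.457). Wfs1 was 1749, 1227, 1605, 1868 and 1278 against 2016, 1283, 1157, 1118 and 1024. Every antibody library exceeded the IgG2b median of 1157, yet the highest value of all was IgG2b replicate 1, and the difference was 0.25 (-0.12 to 0.63).

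Nov, in contrast, was lower like the ventral markers, at 1238, 1389, 1528, 1192 and 2179.6 with the antibody and 3023, 1802, 2339, 2089.8 and 1768 with IgG2b. As for Grp, only antibody replicate 5 reached into the IgG2b range. The log2 difference was -0.56 (SE 0.176, adjusted p = 0.371), and without replicate 5 it was -0.70 (adjusted p = 0.0597) with no overlap. Gsg1l ran from 484 to 707 against 381 to 897, a difference of -0.03 (-0.46 to 0.40).

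**Figure D2:**
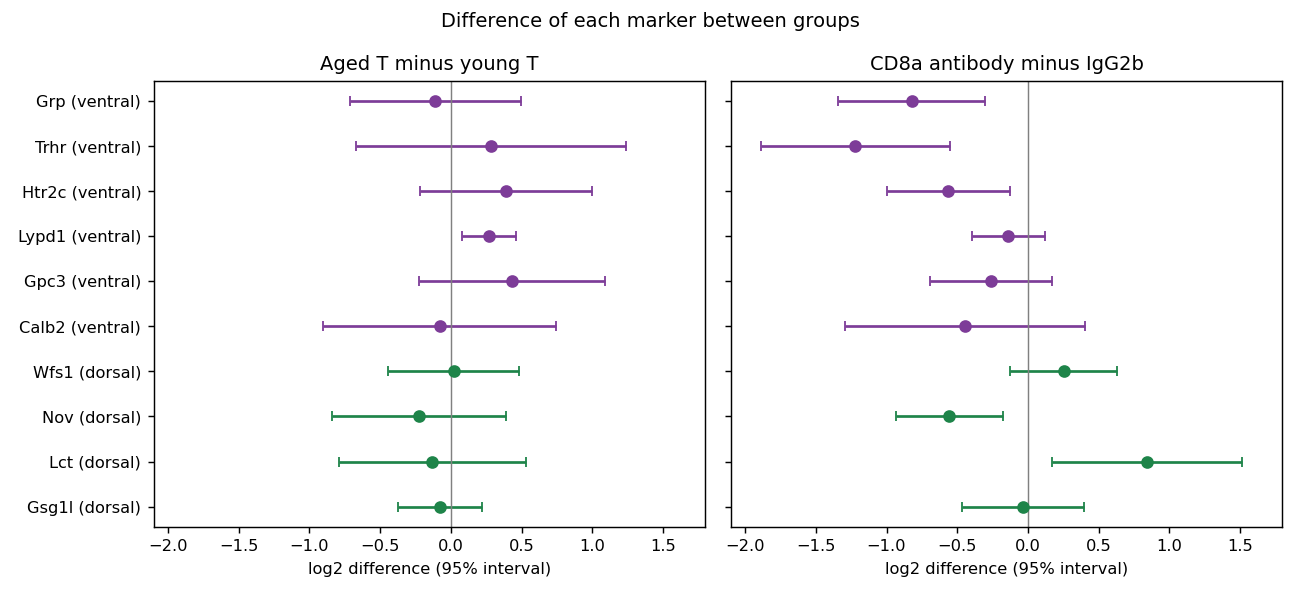
Log2 difference of each marker (x axis; treated minus control, with its 95% interval from limma), ventral markers in purple and dorsal in green. In the depletion experiment Trhr lies furthest to the left at -1.22 and Lct furthest to the right at 0.84, and in the transfer experiment every interval except that of Lypd1 includes 0.

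Levels of cell type genes are given beside these values for the depletion experiment. With all libraries, no gene of any list in this paragraph was called (limma). Without antibody replicate 5, Dsp of the dentate granule cell genes was called at 0.99 (limma, adjusted p = 0.0487). Fezf2 of the neocortex genes was then called at -0.75 (adjusted p = 0.0487), against 0.179% of all genes called. Interneuron genes had lower values with the antibody in 8 of 10, with a median log2 difference of -0.28. Of these, 3 had an unadjusted p under 0.05, against 4.15% of all genes. Their summed normalized count was 9285 to 13616 against 13334 to 15184 with IgG2b. Dentate granule cell genes had higher values in 5 of 6, with a median of 0.48 and sums of 5582 to 7227 against 4793 to 6096. Of these, 3 had an unadjusted p under 0.05, against 4.31% of all genes. Choroid plexus genes had higher values in 11 of 11 (0 at an unadjusted p under 0.05, and 49.6% of all genes had higher values), with a median of 0.53 and overlapping sums of 2428 to 45215 and 4166 to 38068. Thalamus genes had higher values in 3 of 4 (median 0.52, sums of 433 to 1067 against 465 to 793), CA3 genes in 3 of 4 (median 0.47, 1719 to 2626 against 820.1 to 2245) and CA2 genes in 3 of 5 (median 0.40, 2767 to 4769 against 2654 to 3060.3). Mossy cell genes had higher values in 2 of 3 (median 0.35), Cajal-Retzius genes in 2 of 3 tested (0.03), striatum genes in 5 of 5 (0.16), CA1 genes in 1 of 4 (-0.13) and neocortex genes in 1 of 6 (-0.19). No gene of these lists was at 0 reads over all libraries. The part of these levels in the marker differences was not tested. In alternative fits the interneuron or the choroid plexus level was a covariate. The interneuron sums of the groups hardly overlapped, so that level and the antibody cannot be told apart in such a fit. With the interneuron level as a covariate, the log2 difference of Grp was -0.31 and of Nov -0.22, while that of Trhr was -1.86 and of Lct 0.85. With the choroid plexus level as a covariate, Htr2c, which that tissue also expresses strongly, was at -0.70 (adjusted p = 0.0885), Trhr at -1.18 and Grp at -0.75.

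The mean over the markers of each side summarises a library. With the antibody, the mean log2 level of the ventral markers was 7.36, 7.995, 7.69, 7.90 and 7.93, and with IgG2b it was 8.12, 8.46, 8.44, 8.16 and 8.56. The groups did not overlap and their means differed by -0.57. Of single genes, 2.05% separated these groups without overlap, and no such share was computed for means of other gene sets. The dorsal means did overlap, at 9.49 to 10.01 against 9.37 to 9.92, and differed by 0.13. The ventral minus the dorsal mean of a library overlapped too. Antibody replicate 2 stood at -1.50, within the IgG2b range of -1.80 to -0.81. The other antibody libraries lay below that range, at -2.50 to -1.81. In the transfer libraries both sides overlapped, with differences of 0.20 (ventral) and -0.10 (dorsal). No p is given for these means, since the markers were chosen with results of these data known.

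**Figure D3:**
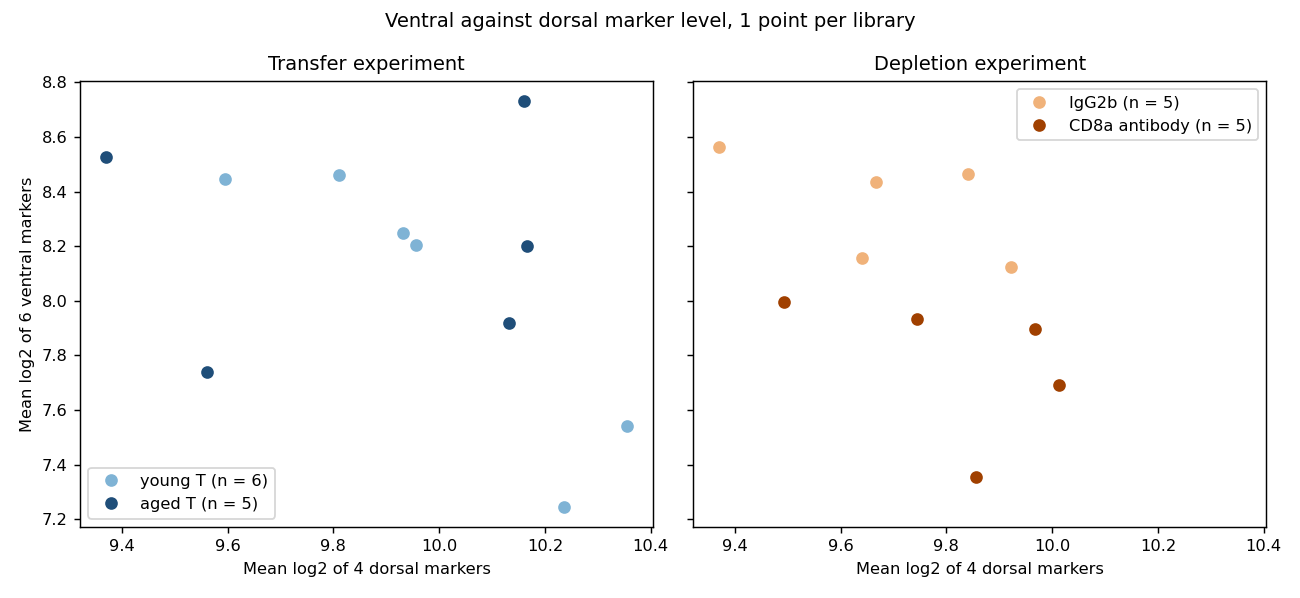
Mean log2(normalized count + 1) of the 6 ventral markers (y axis) against that of the 4 dorsal markers (x axis), 1 point per library. The IgG2b points lie at or above 8.12 on the ventral axis and the antibody points at or below 7.995, whereas young T recipients 1 and 2 lie lowest (7.54 and 7.25) in the transfer panel.

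The agreement of the markers over libraries was examined with the group means removed, for the 45 pairs in each experiment. No pair was called in either experiment (exact permutation within groups, Benjamini-Hochberg over the 45 pairs). At an unadjusted p under 0.05 there were 3 pairs in the transfer and 5 in the depletion experiment. In the transfer experiment an r of at least 0.68 in size, the smallest among these, was reached by 6.67% of marker pairs and by 3.07% of pairs of a marker with any other gene. In the depletion experiment the limit was 0.67, reached by 11.1% and 9.03%.

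In the transfer libraries no pair of markers passed the adjusted test. All 15 ventral pairs had an r above 0 (0.22 to 0.83, median 0.48), as did the 6 dorsal pairs (median 0.13), while 6 of the 24 pairs across the divide did (median -0.25). Of pairs of a ventral marker with any other gene, 49.9% had an r above 0. Without the 2 libraries farthest out in the first gene of each pair, 13 of the 15 ventral pairs were above 0 (median 0.29), with Grp and Calb2 at -0.41 and Trhr and Calb2 at -0.12. The closest pair was Grp and Trhr, the peptide and the receptor of an unrelated peptide. Their Pearson r was 0.83 (exact permutation p = 0.00145, adjusted 0.0651) and Spearman rho 0.84 (p = 0.00175) over 11 libraries, and r was 0.89 without the 2 libraries farthest out in Grp. Htr2c and Gpc3 had an r of 0.72 (exact permutation p = 0.0186, adjusted 0.393) and a rho of 0.75 (p = 0.0194). Aged T recipients 1 and 2 were high in both genes. In the depletion libraries this pair stood at an r of 0.07 and a rho of 0.13. Young T recipients 1 and 2 had the lowest ventral means and the highest Wfs1.

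**Figure D4:**
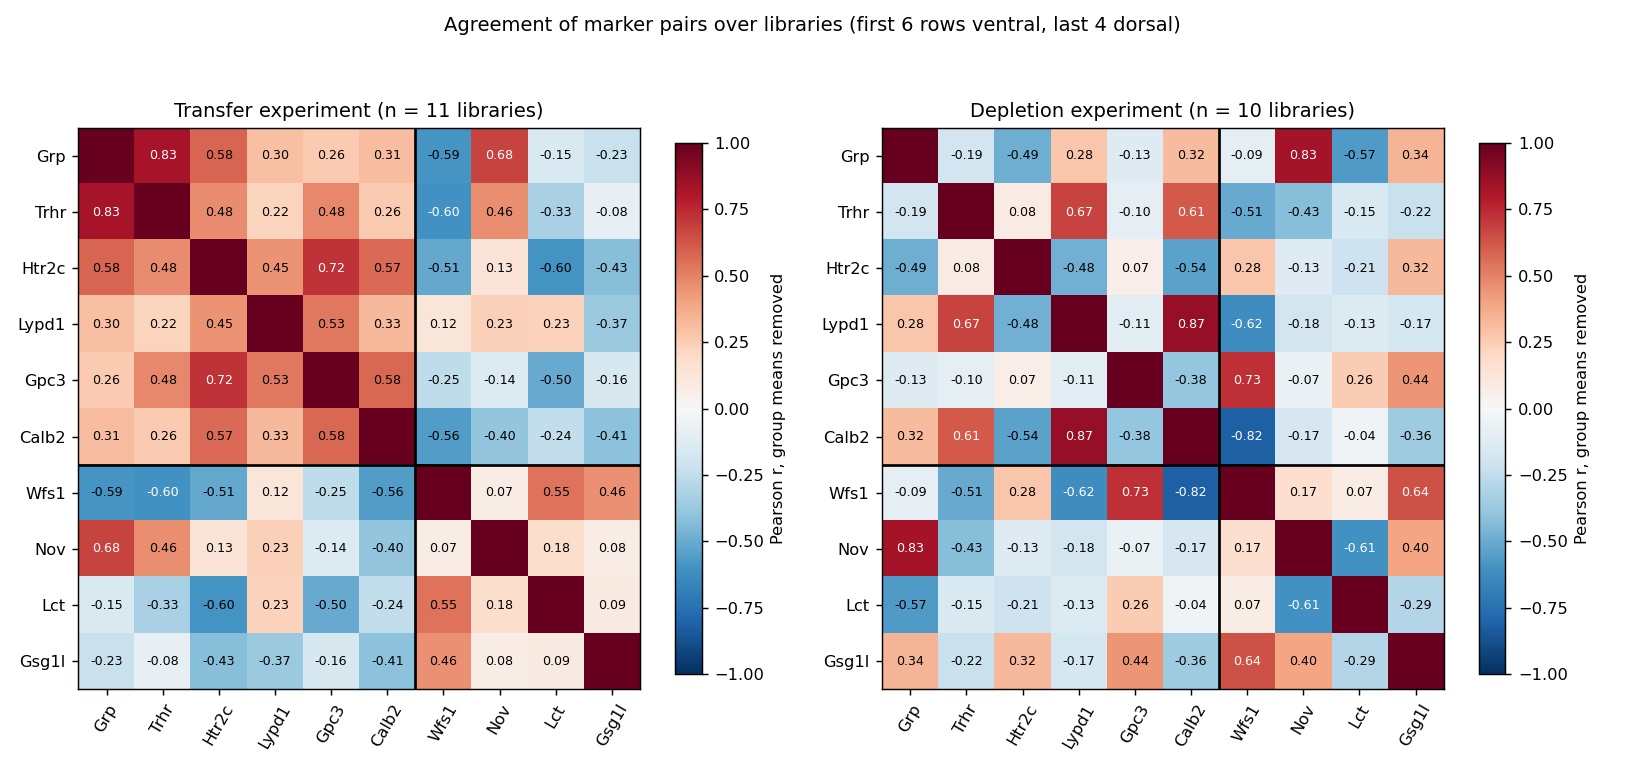
Pearson r of each marker pair over the libraries of the transfer (left) and depletion (right) experiment, group means removed; black lines divide the 6 ventral from the 4 dorsal markers. The ventral block is positive throughout on the left (0.22 to 0.83) and mixed on the right (-0.54 to 0.87).

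In the depletion libraries the signs of the ventral pairs were mixed. Of the 15 ventral pairs 7 had an r above 0 (median -0.10), or 9 without the 2 farthest libraries (median 0.29), and Grp and Trhr stood at -0.19. The difference between the experiments was not tested. Lypd1 and Calb2 were the closest ventral pair, with an r of 0.87 (exact permutation p = 0.00111, adjusted 0.05, not under the threshold), a rho of 0.83 (p = 0.00389) and an r of 0.82 without the 2 libraries farthest out in Lypd1. In the transfer libraries the same pair stood at 0.33. Trhr and Lypd1 had an r of 0.67 (exact permutation p = 0.0322, adjusted 0.290) and a rho of 0.55 (p = 0.0537). Gpc3, a ventral marker, went with the dorsal Wfs1 at an r of 0.73 (exact permutation p = 0.00903, adjusted 0.135) and a rho of 0.67 (p = 0.0514), against -0.25 in the transfer libraries.

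Of the 45 pairs, 24 had the same sign in both experiments. No share of same signs was computed over other genes, so this count is not read as agreement. An r of 0.5 in size with the same sign in both was reached by 3 pairs (6.67% of marker pairs, against 2.56% of pairs of a marker with any other gene). All 3 joined a ventral to a dorsal marker. Grp and Nov went together, with an r of 0.68 in the transfer (exact permutation p = 0.0331, adjusted 0.393; rho 0.61, p = 0.0630) and 0.83 in the depletion libraries (exact permutation p = 0.00743, adjusted 0.135; rho 0.72, p = 0.0233). Without the 2 libraries farthest out in Grp, r was 0.93 in the transfer but 0.39 in the depletion libraries, where the relation was thus weaker. With 1 library left out, the depletion r ran from 0.70 to 0.89. With the log2 total of reads of a library, Grp stood at an r of 0.51 and Nov at 0.73 in the depletion libraries. In the transfer libraries these were -0.19 and -0.18. The part of sequencing depth in this pair was not tested. The r of Nov with the dorsal markers Wfs1, Lct and Gsg1l was 0.07, 0.18 and 0.08 in the transfer and 0.17, -0.61 and 0.40 in the depletion libraries. Among the other dorsal pairs, Wfs1 and Lct stood at 0.55 and 0.07, Wfs1 and Gsg1l at 0.46 and 0.64, and Lct and Gsg1l at 0.09 and -0.29.

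Calb2 and Wfs1 ran opposite to each other, with an r of -0.56 in the transfer (exact permutation p = 0.0999, adjusted 0.393; rho -0.40, p = 0.257) and -0.82 in the depletion libraries (exact permutation p = 0.0163, adjusted 0.184; rho -0.77, p = 0.0203). Without the 2 libraries farthest out in Calb2, r was -0.36 and -0.51. Trhr and Wfs1 stood at -0.60 (exact permutation p = 0.0787, adjusted 0.393; rho -0.72, p = 0.0204) and -0.51 (exact permutation p = 0.114, adjusted 0.395; rho -0.50, p = 0.164). Without the 2 libraries farthest out in Trhr these were -0.39 and -0.35.

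**Figure D5:**
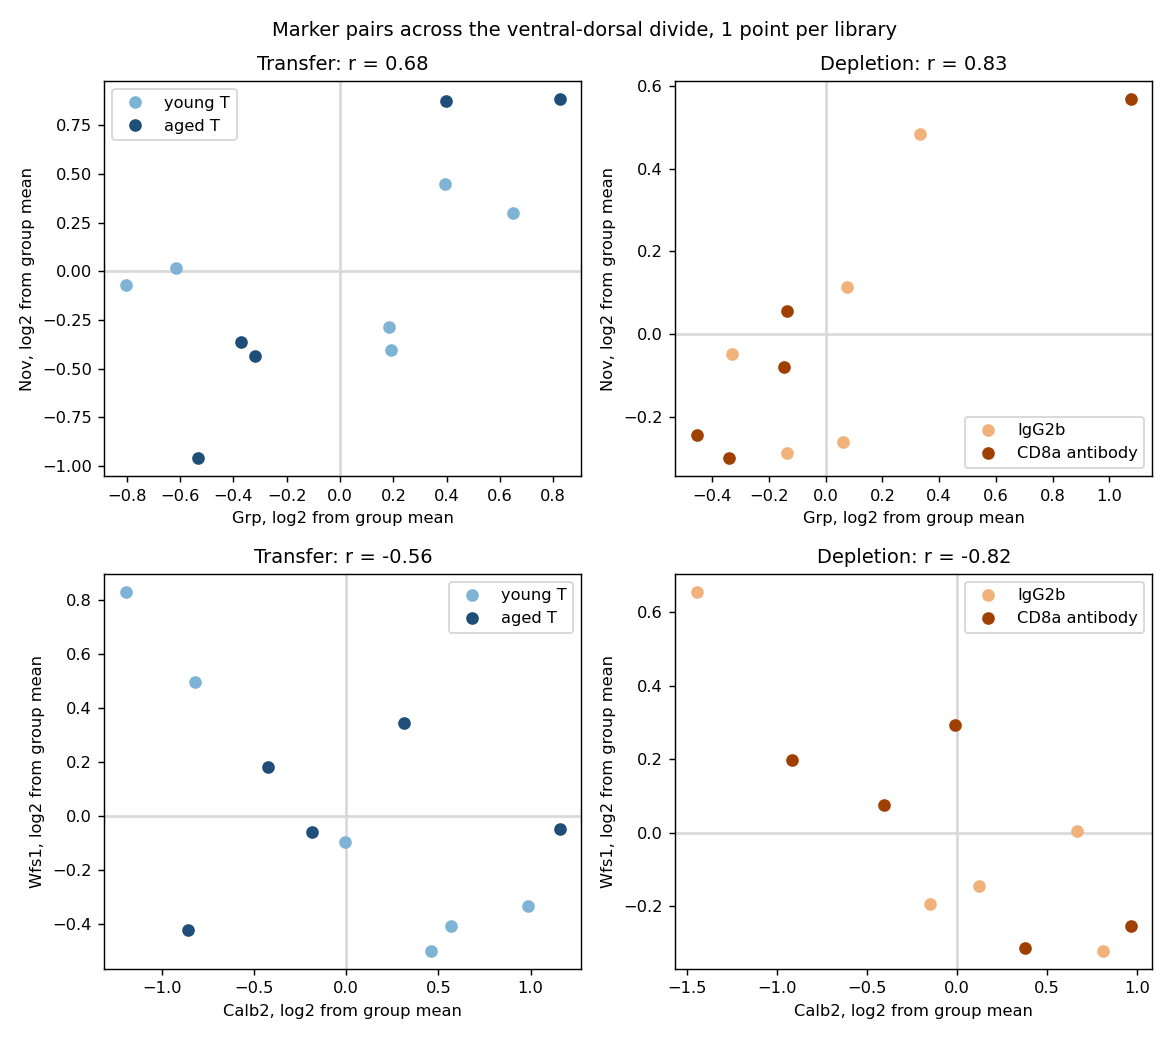
Log2 distance from the group mean of Nov against Grp (upper panels) and of Wfs1 against Calb2 (lower panels), 1 point per library. Nov is higher where Grp is higher, at an r of 0.68 and 0.83, with CD8a antibody replicate 5 alone at the upper right of the depletion panel, and Wfs1 is lower where Calb2 is higher, at an r of -0.56 and -0.82.

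Other genes named as dorsal or ventral markers were set beside them. Of 8 further ventral genes, 7 had lower values with the CD8a antibody (median log2 difference -0.56) and 6 had an unadjusted p under 0.05, against the 4.15% of all genes given above. Like the markers, these genes were listed with earlier results of these data known, so their counts are no independent support. None was called with all libraries. Dcn, the matrix proteoglycan decorin, stood at 351 ± 151 against 803 ± 128 (SD, n = 5 each), a log2 difference of -1.30 (limma, adjusted p = 0.175). Nr2f2, a nuclear receptor, differed by -0.997 (adjusted p = 0.245) and Etv1, an ETS transcription factor, by -0.51 (adjusted p = 0.233). Without antibody replicate 5, where 0.179% of all genes were called (0.115% lower), Dcn fell by 1.51 (adjusted p = 0.0200) and Resp18 by 0.85 (adjusted p = 0.0225). Of the 2 further dorsal genes, Spata13 differed by 0.60 (adjusted p = 0.417) and by 0.81 without that library (adjusted p = 0.0477), and Ndst4 by -0.06. Between the transfer groups 5 of the 8 ventral genes had lower values, as did 51% of all genes (median -0.10), with Resp18 at 0.38, Col5a1 at -0.78 and Dcn at -0.44, and Spata13 and Ndst4 at -0.08 and -0.07 (adjusted p 0.600 to 0.952 for these 5).

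Of 24 genes for ligands, receptors and binding partners of the markers' products, 21 were tested in the transfer and 20 in the depletion experiment, and none was called. With the antibody, 4 of the 20 had lower values at an unadjusted p under 0.05, against 4.15% of all genes, and 1 a higher value, against 4.31%. This list too was chosen with earlier results of these data known. Nmbr, the neuromedin B receptor and a relative of the Grp receptor, differed by -1.03 (17.6 ± 6.61 against 37.4 ± 15.5, SD, n = 5 each; limma, adjusted p = 0.377). The AMPA receptor subunit Gria4 differed by -0.35 (adjusted p = 0.454), and the nicotinic receptor subunit Chrna7 by -0.52 (adjusted p = 0.503). The Grp receptor gene Grpr passed the filter in the transfer experiment only, and the ligand gene Trh in neither. In the transfer experiment Chrna4, another nicotinic subunit, differed by -0.36, the ligand gene Nmb by 0.40 and Cnih2, an AMPA receptor auxiliary protein, by 0.24 (adjusted p 0.600 to 0.664).

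Of 13854 other genes tested in both experiments, those with symbols of predicted or unnamed genes (such as Gm or Rik symbols) were left out. The remaining genes were ranked by likeness to the ventral minus dorsal level of a library, by the smaller of the 2 correlations, over 11 and 10 libraries. The 5 closest were Cpne2 (r 0.89 and 0.84 in the transfer and depletion libraries), Serpina3g (0.86 and 0.81), Nr2f2 (0.81 and 0.82), Hap1 (0.78 and 0.95) and Fcgbp (0.76 and 0.75). The 5 most opposite were Arhgap44 (-0.87 and -0.85), Kctd1 (-0.82 and -0.84), Nmnat3 (-0.80 and -0.91), Rnf39 (-0.79 and -0.84) and Pou3f1 (-0.92 and -0.78). Pou3f1, a POU transcription factor, is one of the CA1 genes listed, and Nr2f2 is one of the ventral genes listed. These are the extremes of a long ranking and carry no test.

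The same ranking was made for each marker. Lct had the closest neighbour of any marker, the ephrin receptor gene Epha7 (0.93 and 0.95), followed by the sodium-calcium exchanger Slc8a2 (0.89 and 0.90) and Dagla (0.91 and 0.86), which makes an endocannabinoid. Nov was followed by Prss12 (0.87 and 0.86), the transcription factor Fezf2 (0.90 and 0.85) and Papl (0.91 and 0.80). Fezf2 is one of the neocortex genes listed. Htr2c was followed by the insulin receptor Insr (0.86 and 0.85), the Wnt co-receptor Lrp6 (0.86 and 0.85) and the nitric oxide synthase Nos1 (0.80 and 0.87). The neighbours of Calb2 were Esyt3, Hap1 and Ece2 (0.79 to 0.89 in either experiment), and those of Wfs1 were Vrk2, Hs6st1 and Tmeff1 (0.77 to 0.91). Those of Grp were Pmpcb, Pgrmc1 and Rab26 (0.72 to 0.82), of Trhr Glp2r, Ctps2 and Cd163 (0.75 to 0.82), and of Gsg1l Dsc3, Scara3 and Pdzrn3 (0.76 to 0.82). Those of Gpc3 were Trim68, Tmem130 and Ubfd1 (0.72 to 0.91). Lypd1 had the least close neighbours, Tm7sf3, Ush1g and Rbm10 (0.61 to 0.70).

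Levels of 9 marker and cell type pairs, picked after values were seen, were compared over libraries in each experiment. None of the 18 relations passed (exact permutation, lowest adjusted p = 0.0700), so the values are a description. Htr2c and the choroid plexus genes stood at an r of 0.44 in the transfer and 0.90 in the depletion libraries (0.31 and 0.76 without the 2 farthest). The values below are given in the same way. With dentate granule cell genes, Lct stood at 0.57 and 0.83 (0.43 and 0.72) and Grp at 0.49 and -0.62 (0.39 and 0.12). Trhr stood there at 0.07 and 0.21 (0.27 and 0.66), and Gsg1l at -0.24 and -0.18 (-0.26 and 0.42). With CA1 genes, Nov stood at 0.70 and 0.40 (0.17 and 0.30) and Wfs1 at 0.55 and 0.44 (0.38 and 0.37). Calb2 stood at 0.03 and -0.21 (-0.54 and 0.22) with interneuron genes. With mossy cell genes it stood at 0.67 and 0.29 (0.50 and -0.23). Marker and cell type pairs beyond these 9 were not tested, and some had values of similar or larger size. For example, over all libraries Grp stood at -0.79 and -0.75 with CA2 genes, and Nov at -0.70 and -0.74.

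Most markers varied more between libraries of 1 group than most genes. The within-group SD on the log2 scale was above that of 97.2% of tested genes for Calb2, 93.6% for Lct and 92.6% for Trhr in the depletion experiment. In the transfer experiment it was above 98% for Trhr, 96.9% for Calb2, 93.8% for Lct, 92.5% for Gpc3 and for Nov, 92.1% for Htr2c and 91.6% for Grp. Lypd1 was the exception, above only 20.4% and 26.3% of genes.

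Per kilobase of exon, Nov had the highest mean normalized count in all 4 groups (525 to 768), Wfs1 the next (348 to 479) and Calb2 the third (200.0 to 281). With IgG2b the libraries of Nov (616 to 1054) did not overlap those of Wfs1 (270.4 to 532), whereas in aged T recipients they did (259 to 933 and 341 to 581). Grp, Lypd1, Gsg1l, Lct and Htr2c followed at 48.1 to 223, and Trhr and Gpc3 were lowest in every group (16.9 to 39.2). Among the 5 in the middle Grp stood at 223 ± 38.6 per kilobase with IgG2b and 136 ± 72.0 with the antibody (SD, n = 5 each), above Gsg1l in the first and below it (145 ± 21.0) in the second, differences within the spread of the libraries.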

How the data were processed

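Hippocampal RNA of 21 samples was sequenced from strand-specific, polyA-selected, paired-end libraries, per the labels' protocols. The submitters' processing notes name STAR, RSEM, DESeq2 and mm10, without versions or roles. Per the file headers and values, the authors deposited 1 table per experiment with a normalized signal per gene and library, the read count divided by 1 size factor. The authors' deposited tables also hold a log2 fold change, its test score and p-values, signed as control over treated, which were not used for the results. All values were whole multiples of 1 step (100% of values, relative tolerance 1e-06), so whole reads were recovered. Within a group no libraries were duplicates (chi-square per degree of freedom at least 6.20).

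edgeR had been set for raw counts. As the tables hold normalized counts, limma-trend (limma 3.58.1, R 4.3.3) was run on log2(normalized count + 1) for genes with a mean of at least 10, each experiment alone, with a threshold of 0.05 on the p adjusted by Benjamini-Hochberg. Differences on this scale understate changes of low genes. edgeR 4.0.16, DESeq2 1.42.0 and limma-voom on the recovered reads, other pseudocounts and filters, cell type levels as covariates and leaving out each library were alternatives. Both the test and the pair analysis were tested on simulated data. Pairs of markers were compared by Pearson r and Spearman rho of values centred on their group means, with a two-sided exact permutation test over all pairings within both groups (86400 in the transfer and 14400 in the depletion experiment). Genes beyond the 10 markers were named by rank: the 5 most like and 5 most opposite the ventral minus dorsal level, the 3 most like each marker, and of each further list those called and the 3 with the smallest p. Symbols of predicted or unnamed genes were left out of the rankings by correlation. The members and lists were chosen with earlier results of these data known.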

Additional observations from a re-analysis of the deposited data

Results flagged for a closer look

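In 3 of the 40 sets of values (10 markers in 4 groups) 1 library lay far from the others of its group by Dixon's test, which flags about 1 set in 20 by chance. Grp stood at 389 in CD8a antibody replicate 5, above the other 4 antibody libraries at 134 to 168, with a gap of 0.869 of the range against a critical value of 0.710. The same library stood apart on the first principal component. Wfs1 stood at 2016 in IgG2b replicate 1, above the other 4 at 1024 to 1283 (gap 0.738 of the range, critical value 0.710). Lypd1 stood at 895 in young T recipient 6, below the other 5 at 1001 to 1025 (gap 0.821 of the range, critical value 0.625).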

How the results depend on the processing

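In the transfer experiment 0 genes, 0 markers and 0 marker pairs were called under every alternative run. In the depletion experiment limma called 1 gene, against 0 without the mean filter, 92 by DESeq2, 3 with the choroid plexus level and 0 with the interneuron level as a covariate, and 0 to 25 with 1 library left out. The number of markers called was 0 to 1 with 1 library left out (Grp, without CD8a antibody replicate 5) and 0 otherwise. The number of pairs called was 0 to 2 with 1 library left out: Trhr and Lypd1 (r 0.80, exact permutation, adjusted p = 0.0469) and Trhr and Calb2 (r 0.82, adjusted p = 0.0312) without CD8a antibody replicate 5, and Lypd1 and Calb2 (r 0.93, adjusted p = 0.0156) without IgG2b replicate 3. The counts of 3 ventral markers and 6 further ventral genes lower, and 1 dorsal marker higher, at an unadjusted p under 0.05 were the same without CD8a antibody replicate 5, an alternative chosen after seeing the data.

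Several small differences changed sign. Wfs1 in the transfer experiment was at -0.046 by edgeR and -0.0468 by DESeq2, and in the depletion experiment Gpc3 was at 0.078 and Gsg1l at 0.29 with the interneuron level as a covariate. With 1 library left out, the transfer differences ran from -0.31 to 0.0249 for Grp, -0.10 to 0.53 for Trhr, -0.37 to 0.14 for Calb2, -0.0792 to 0.19 for Wfs1, -0.45 to 0.015 for Nov and -0.32 to 0.0768 for Lct, and that of Gsg1l in the depletion experiment from -0.18 to 0.13. The r of Trhr and Lypd1 in the transfer libraries ran from -0.0703 to 0.40 and that of Htr2c and Gpc3 in the depletion libraries from -0.20 to 0.42. The cause was not tested.

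No paired analysis was possible because the numbers in the sample titles are not shared between the groups compared, and replicate numbers here follow the order of the sample records. In simulated depletion data the test recovered 82% of 2-fold but 27% of 1.5-fold changes, set in randomly drawn genes. Smaller differences would thus often be missed at this number of libraries. Most markers varied more than most genes, so these shares do not carry over to them.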
